A study of Mus musculus with 8 samples.

Results

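The Zbtb genes were taken as the protein-coding genes whose mouse symbol starts with Zbtb and a digit, which gave 41 of 21951 protein-coding genes of the annotation. Of the 17068 m6A peaks deposited for the series, 112 had their midpoint inside one of these genes on the same strand. Among those 112 peaks, 45 had been called with both m6A antibodies (confidence group 1, Cfg1), 43 with the antibody from Synaptic Systems (SySy) where the Abcam signal stayed below the calling threshold (Cfg2), and 24 with the antibody from Abcam alone (Cfg3). Cfg1 and Cfg2 peaks together are called SySy-called below.

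The peaks came from ChrMeRIP-seq, in which fragmented RNA from the chromatin fraction, rich in nascent transcripts, is immunoprecipitated with an antibody against N6-methyladenosine (m6A) and sequenced beside its input. All 8 libraries were from E14 mouse embryonic stem cells (mESCs) grown on gelatine in serum and LIF, with no treatment or genetic change named. They formed 4 groups of 2 replicates, labelled SySy_ChrMeRIP, SySy_Input, Abcam_ChrMeRIP and Abcam_Input. By the study's methods the libraries of each antibody were also made with a different kit, although the labels name 1 kit, so the antibody and the kit cannot be told apart here. Each list was called on pooled duplicates and its score column was 0 throughout. The lists therefore give no sequencing depth, peak height or error between replicates, which are unknown here, and a gene without a peak is not shown to lack m6A.

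Zbtb proteins carry an N-terminal BTB (POZ) domain, which joins them to each other and to corepressor complexes, and C-terminal C2H2 zinc fingers, which bind DNA. Most act as sequence-specific repressors, and several steer lineage choice in blood, immune and neural cells. In mRNA, m6A is placed by the METTL3-METTL14 complex at DRACH sequences, of which GGACU is the best known, and is concentrated in long internal exons and around stop codons. Many Zbtb genes carry most of their coding sequence in a single long exon.

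The peaks with the most copies of the motif are shown first. Of the 112 peaks, 6 held at least 2 copies of GGACT (the DNA letters of GGACU, searched on the transcribed strand alone), and all 6 were SySy-called. They are given 5′ to 3′ from mouse assembly GRCm38 (mm10), with GGACT in capitals. In Zbtb9, a Cfg1 peak across the stop codon held 3 copies. This peak is also exonic in Ggnbp1 on the same strand, so its gene of origin is uncertain. The copies are shown as windows of 29 bases. The adenosines of these copies lay 47 and 9 nt before the first base of the stop codon and 56 nt after it.
Zbtb9 first coding site, chr17:26974939-26974967, plus strand: ccttcgccaccgGGACTtatgcaagggcc
Zbtb9 second coding site, chr17:26974977-26975005, plus strand: ccacttaccactGGACTtacaaatgacta
Zbtb9 3′ UTR site, chr17:26975042-26975070, plus strand: cctgctgctgctGGACTcttaccttcacc
The other Cfg1 peaks of this kind were intronic in Zbtb5 and coding in Zbtb48.
Zbtb5 intron 1, chr4:45007152-45007373, minus strand: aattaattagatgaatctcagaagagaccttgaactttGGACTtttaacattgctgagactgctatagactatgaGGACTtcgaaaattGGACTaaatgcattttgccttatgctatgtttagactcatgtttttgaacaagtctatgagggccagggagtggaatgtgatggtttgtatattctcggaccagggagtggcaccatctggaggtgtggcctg
Zbtb48 exon 2, chr4:152026480-152026729, minus strand: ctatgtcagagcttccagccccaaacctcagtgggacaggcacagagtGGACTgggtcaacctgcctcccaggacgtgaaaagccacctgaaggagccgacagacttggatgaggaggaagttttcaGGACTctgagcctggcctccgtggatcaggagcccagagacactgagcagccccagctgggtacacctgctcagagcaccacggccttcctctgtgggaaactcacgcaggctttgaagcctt
The remaining ones were Cfg2 peaks in the coding sequence of Zbtb7a, Zbtb39 and Zbtb4.
Zbtb7a exon 2, chr10:81144000-81144249, plus strand: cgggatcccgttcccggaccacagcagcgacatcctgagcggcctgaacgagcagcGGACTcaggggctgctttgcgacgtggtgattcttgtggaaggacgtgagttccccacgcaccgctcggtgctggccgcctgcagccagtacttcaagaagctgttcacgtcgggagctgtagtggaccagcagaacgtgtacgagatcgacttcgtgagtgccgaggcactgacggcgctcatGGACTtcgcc
Zbtb39 exon 2, chr10:127743106-127743336, plus strand: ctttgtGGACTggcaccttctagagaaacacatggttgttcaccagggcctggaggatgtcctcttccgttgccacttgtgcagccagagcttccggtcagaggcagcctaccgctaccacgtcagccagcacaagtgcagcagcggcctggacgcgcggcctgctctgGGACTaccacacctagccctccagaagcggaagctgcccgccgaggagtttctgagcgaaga
Zbtb4 exon 4, chr11:69778531-69778780, plus strand: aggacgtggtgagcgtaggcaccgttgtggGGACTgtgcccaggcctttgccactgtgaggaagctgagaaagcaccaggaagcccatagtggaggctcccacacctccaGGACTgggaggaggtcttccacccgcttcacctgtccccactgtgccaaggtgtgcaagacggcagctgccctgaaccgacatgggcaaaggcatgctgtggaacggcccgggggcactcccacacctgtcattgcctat
GGACT was absent from all peaks of several genes, among them Zbtb41, Zbtb49, Zbtb6 and Zbtb25. Zbtb22 had the most peaks of these genes, and none of its 6 peaks held GGACT. Its first Cfg1 peak is shown with related words in capitals. It held the word GGACC once, followed by the word AGACT once and by the word GGACA once.
Zbtb22 exon 2, chr17:33917159-33917408, plus strand: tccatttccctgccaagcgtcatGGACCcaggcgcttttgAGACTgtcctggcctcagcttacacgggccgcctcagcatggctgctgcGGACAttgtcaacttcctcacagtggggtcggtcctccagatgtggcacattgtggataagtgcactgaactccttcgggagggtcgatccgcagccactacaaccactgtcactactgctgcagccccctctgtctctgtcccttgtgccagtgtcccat

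Most Zbtb genes carried a peak. A SySy-called peak lay in 29 of the 41 genes (70.7%, 95% Wilson interval 55.5 to 82.4), against 19.3% of all protein-coding genes. Cfg1 peaks were found in 22 members (53.7%), where the background was 11.8%. Cfg2 peaks were found in 24 members (58.5%), where the background was 13.5%. Abcam-only peaks lay in 17 members (41.5%), beside 13.2% of all protein-coding genes. Counting every list, 33 members (80.5%, 66.0 to 89.8) held a peak, against 24.8% of all protein-coding genes. The members share long coding exons and their transcript levels were not measured here, so these shares are a description of the family and were not tested. Where present, SySy-called peaks came in numbers: 16 of the 29 genes (55.2%) held 3 or more, with a median of 3 per gene. Of the other coding genes with such a peak, 31.5% held 3 or more, with a median of 2. These counts include adjacent peaks: 26 pairs of SySy-called Zbtb peaks were 30 nt apart or less. Median spliced length was 4708 nt in the 29 genes and 3882 nt in the other coding genes with such a peak. The counts were not adjusted for either.

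**Figure D1:**
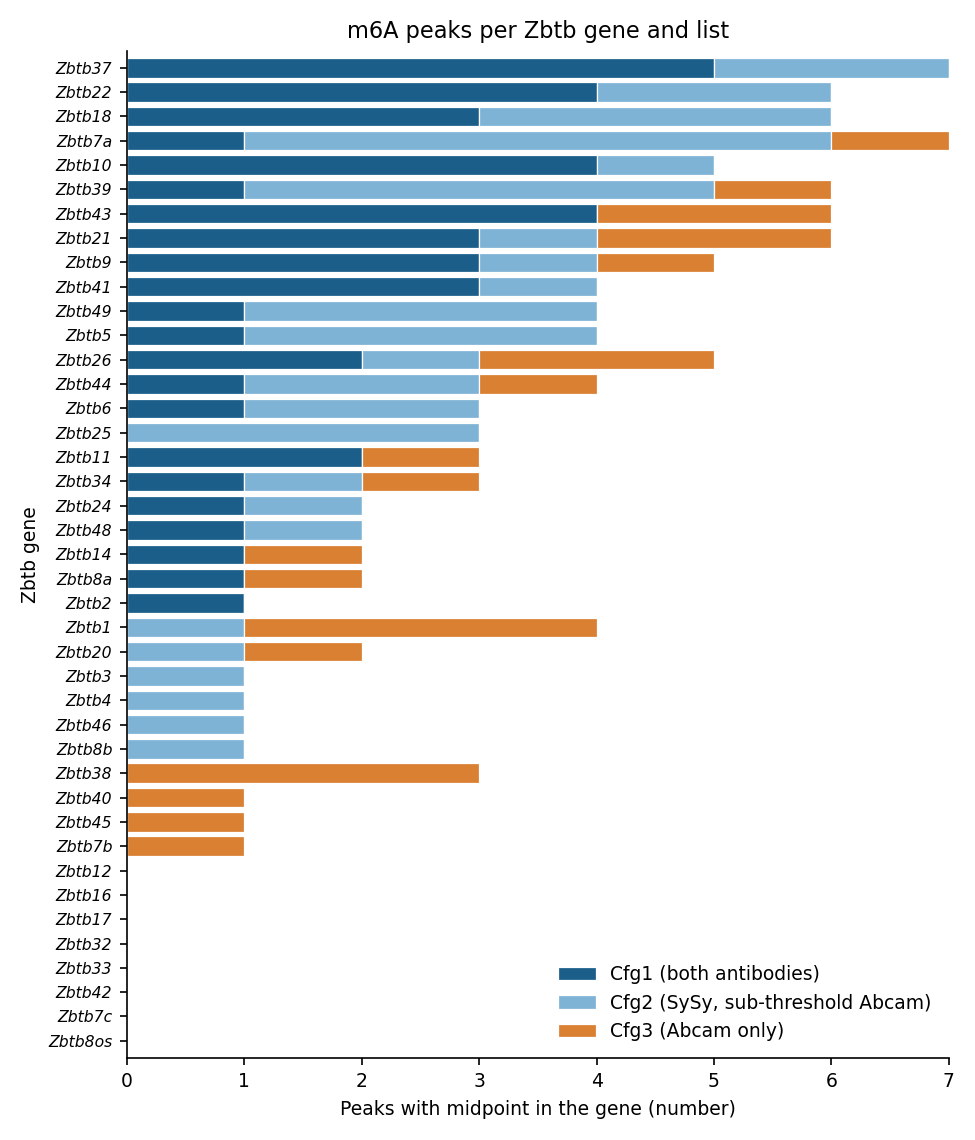
Number of peaks (horizontal axis) in each of the 41 Zbtb genes, stacked by list. Zbtb37 and Zbtb7a hold 7 peaks each, 4 genes hold Cfg3 peaks alone, and the last 8 genes hold none.

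Zbtb37 (chr1:161002922-161034849, minus strand) stood at the head of the family with 5 Cfg1 and 2 Cfg2 peaks. A Cfg2 peak was in its 5′ UTR, and 4 peaks ran along the 960-nt exon 3, with midpoints between 1451 and 790 nt before the stop codon. The remaining Cfg1 peaks lay in the 3′ UTR, 61 and 301 nt past the stop codon. In Zbtb22 (chr17:33915904-33919325, plus strand), with 4 Cfg1 and 2 Cfg2 peaks, all lay in the single coding exon, between 1514 and 321 nt before the stop codon. Methylated regions thus extended over much of the coding exon in both genes, and in Zbtb22 no peak lay within 200 nt of the stop codon.

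Zbtb18 (chr1:177442351-177450764, plus strand) encodes RP58, a repressor needed for cortical neuron development. Its 3 Cfg1 peaks lay 1281, 1044 and 606 nt before the stop codon and its 3 Cfg2 peaks 263, 184 and 97 nt before it. In this gene the peaks shared by both antibodies were all upstream of the first zinc finger match (residue 381), and the Cfg2 peaks were all within or between fingers. Zbtb7a (chr10:81135220-81152995, plus strand) encodes LRF, a repressor of fetal globin genes. It held 1 Cfg1, 5 Cfg2 and 1 Cfg3 peaks. In exon 2 there were 3 Cfg2 peaks, from 1557 to 709 nt before the stop codon, another lay 164 nt before the stop codon, the fifth was intronic, and the Cfg1 peak lay 46 nt past it.

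Zbtb10 (chr3:9250602-9285333, plus strand) held 4 Cfg1 peaks and 1 Cfg2 peak spread over 3 exons. The Cfg2 peak was in the first exon, 2192 nt before the stop codon. Both Cfg1 peaks of exon 2 lay at 1365 and 910 nt before the stop codon, and the pair in the last exon flanked the stop codon at 150 nt before and 60 nt after it. Zbtb39 (chr10:127739538-127747349, plus strand), whose coding sequence of 2136 nt lies in 1 exon, held 4 Cfg2 peaks between 1913 and 474 nt before the stop codon. Its Cfg1 peak lay 69 nt past the stop codon, and a Cfg3 peak lay between the Cfg2 peaks at 1253 nt before it. The genes therefore differed in which list covered the long exon and which the stop codon.

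Zbtb43 (chr2:33450287-33468559, minus strand) had 4 Cfg1 peaks and no Cfg2 peak, from 709 nt before to 147 nt past the stop codon. Of its 2 Cfg3 peaks, 1 lay 908 nt before the stop codon and the other outside the representative transcript. Zbtb21 (chr16:97943357-97962622, minus strand), with a coding sequence of 3282 nt, held 3 Cfg1 peaks and 1 Cfg2 peak between 2890 and 566 nt before the stop codon. Both of its Cfg3 peaks lay closer to the stop codon, at 145 and 55 nt before it. In Zbtb21 the region next to the stop codon was thus called with the Abcam antibody alone.

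**Figure D2:**
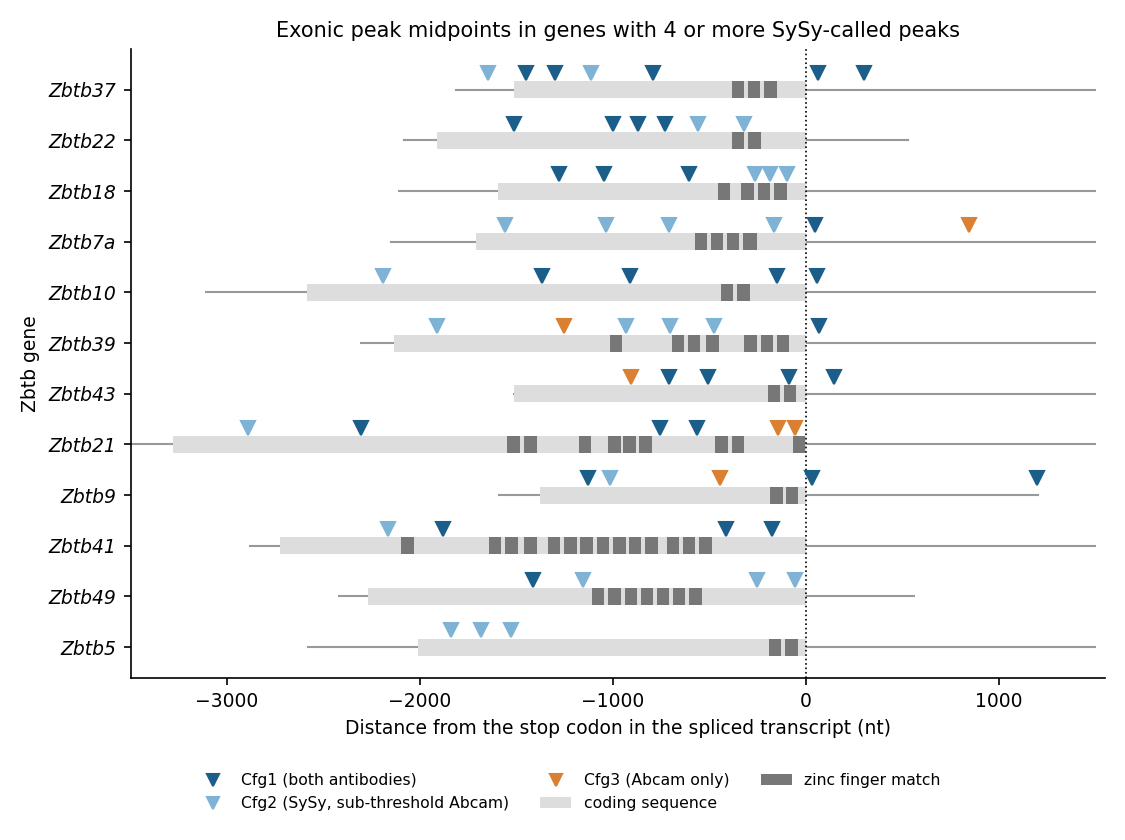
Exonic peak midpoints (triangles, coloured by list) in the 12 genes with 4 or more SySy-called peaks, by distance from the stop codon in nt along the spliced transcript. Pale bars are coding sequence, dark blocks are zinc finger matches, and lines are UTRs, cut at 1500 nt past the stop codon. Peaks line the coding sequence upstream of the fingers in most of the genes. In Zbtb7a, Zbtb10, Zbtb41 and Zbtb49 coding peaks lie on both sides of the finger matches, and in Zbtb41 another lies between them.

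Another 4 genes held 4 SySy-called peaks each. They were Zbtb9 (3 Cfg1, 1 Cfg2), Zbtb41 (3 Cfg1, 1 Cfg2), Zbtb49 (1 Cfg1, 3 Cfg2) and Zbtb5 (1 Cfg1, 3 Cfg2). Zbtb26, Zbtb44, Zbtb6 and Zbtb25 held 3 each, and all those of Zbtb25 were Cfg2 peaks. Zbtb11, Zbtb34, Zbtb24 (a gene mutated in an immunodeficiency with centromeric instability) and Zbtb48 (the telomere-binding protein TZAP) held 2 each. A single SySy-called peak lay in 9 genes. For Zbtb14, Zbtb8a and Zbtb2 it was a Cfg1 peak, and for Zbtb1, Zbtb20, Zbtb3, Zbtb4, Zbtb46 and Zbtb8b it was a Cfg2 peak. Zbtb46 is best known as a marker of classical dendritic cells.

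Within these smaller sets the same places recurred. In Zbtb9 SySy-called peaks lay 1127 and 1017 nt before the stop codon, in the part that encodes the BTB domain and linker, and then 33 and 1199 nt past the stop codon. The exonic peaks of Zbtb5 were all Cfg2 and formed a run of 3 from 1840 to 1526 nt before the stop codon, around codons 57 to 162 of 670. Zbtb26 had SySy-called peaks 523, 366 and 113 nt before the stop codon, and both of its Cfg3 peaks lay upstream of them at 975 and 810 nt. Zbtb25 had a pair 764 and 647 nt before the stop codon and another peak 23 nt past it. In Zbtb6 the Cfg2 peaks lay 714 and 551 nt before the stop codon and the Cfg1 peak 184 nt before it. The Cfg1 peak of Zbtb44 was in the first exon, 1023 nt before the stop codon, with Cfg2 peaks at 156 and 12 nt before it in the last.

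Among the 9 genes with 1 SySy-called peak, that of Zbtb20 was intronic and the other 8 were in coding sequence. The Cfg1 peaks of Zbtb2 and Zbtb14 lay 143 and 111 nt before the stop codon. That of Zbtb8a lay at codon 116, 956 nt before the stop codon, and held 1 GGACT. The Cfg2 peaks of Zbtb1, Zbtb3 and Zbtb46 lay 1773, 1240 and 1427 nt before the stop codon, and those of Zbtb8b and Zbtb4 lay 849 and 744 nt before it. None of these 5 Cfg2 peaks was within 200 nt of the stop codon.

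Cfg3 peaks were most numerous in Zbtb1, a regulator of lymphoid development, and Zbtb38, which binds methylated DNA, with 3 each. The Zbtb1 peaks lay 1354, 1184 and 803 nt before the stop codon, downstream of its Cfg2 peak at 1773 nt before it. In Zbtb38, whose coding sequence of 3591 nt lies in 1 exon, they lay 1993, 891 and 220 nt before the stop codon and no SySy-called peak was listed. Zbtb43, Zbtb21 and Zbtb26 followed with 2 each. Zbtb40, Zbtb45 and Zbtb7b (ThPOK, which directs T cells to the CD4 lineage) held 1 Cfg3 peak each and no other, so that 4 genes were listed with Cfg3 peaks alone. Of the 24 Cfg3 peaks, 10 lay within 500 nt (midpoint to midpoint, along the genome) of a SySy-called peak of the same gene.

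No peak of any list lay in Zbtb7c, Zbtb8os, Zbtb12, Zbtb16, Zbtb17, Zbtb32, Zbtb33 and Zbtb42. Among them Zbtb16 (PLZF) and Zbtb32 are best known from lymphocytes, Zbtb17 encodes MIZ1, a partner of MYC, and Zbtb33 encodes the methyl-CpG-binding protein Kaiso. Zbtb8os belongs to the set by its symbol alone. It lies opposite Zbtb8a and was the sole member with no match to the C2H2 zinc finger pattern in its predicted protein. The median share of coding sequence in the longest coding exon was 63.9% over these 8 genes and 86.9% over the 29 genes with a SySy-called peak. Zbtb12, Zbtb33 and Zbtb42 have their whole coding sequence in 1 exon and still held no peak.

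Zbtb transcripts had few exons and long ones. The longest coding exon held a median of 1268 coding nt, or 72.9% of the coding sequence, against 333 nt and 33.2% in the other protein-coding genes. In 11 members the whole coding sequence lay in 1 exon. Of the 84 SySy-called peaks in exons of the representative transcript, 68 (81.0%, 71.3 to 87.9) had their midpoint in the longest coding exon, and 28 of the 29 genes had a coding SySy-called peak there, all but Zbtb20. That exon made up on average 62.7% of the spliced length of the transcripts concerned, counted once per peak. In the other coding genes the share was 58.9% of 8670 exonic SySy-called peaks, and the length share 39.3%. In both sets of genes the long exon thus held more SySy-called peaks than its length share. In 20 members the longest coding exon was also the last exon, so the 81.0% is not a share in internal exons. The last exon held 72.6% of exonic SySy-called peaks in Zbtb genes and 60.2% in the others. Coding sequence in exons other than the last held 26.2% in Zbtb genes and 35.4% in the others. This share takes in every such exon, not the longest coding exon alone. These differences were not tested.

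Coding sequence rather than 3′ UTR held most Zbtb peaks. Of the 84 exonic SySy-called peaks, 73 (86.9%, 78.1 to 92.5) were in coding sequence, which made up 44.4% of the spliced length. By comparison, 58.1% of the exonic SySy-called peaks of other genes were coding, at a length share of 56.3%. There were 10 SySy-called 3′ UTR peaks (11.9%), in Zbtb37, Zbtb7a, Zbtb10, Zbtb39, Zbtb43, Zbtb9, Zbtb25 and Zbtb34. All but 3 of these 10 lay within 200 nt of the stop codon. The exceptions lay 301 nt past it in Zbtb37, 1199 nt past it in Zbtb9 and 1639 nt past it in Zbtb34.

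Peaks also lay near the stop codon, in part within the same long exon. A SySy-called peak lay within 200 nt of the stop codon in 16 of the 29 genes. Of the 84 exonic SySy-called peaks, 21 (25%, 17.0 to 35.2) did so, although this window made up 9.58% of the spliced length on average. The share in other coding genes was 23.8%, at a length share of 9.95%. In Zbtb2, Zbtb6, Zbtb9, Zbtb14, Zbtb18, Zbtb25, Zbtb26, Zbtb34, Zbtb39 and Zbtb43 these peaks lay in the longest coding exon and are counted there too. Zbtb7a, Zbtb10, Zbtb37, Zbtb41, Zbtb44 and Zbtb49, which have less than 80% of their coding sequence in 1 exon, held SySy-called peaks both in the long exon and near the stop codon in another exon. In Zbtb41 and Zbtb49, the codons of most zinc fingers lie between these regions. Zbtb41 had peaks 2164 and 1879 nt before the stop codon, then none until 414 and 177 nt before it. Zbtb49 had them at 1415 and 1153 nt, and then at 253 and 55 nt before the stop codon.

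**Figure D3:**
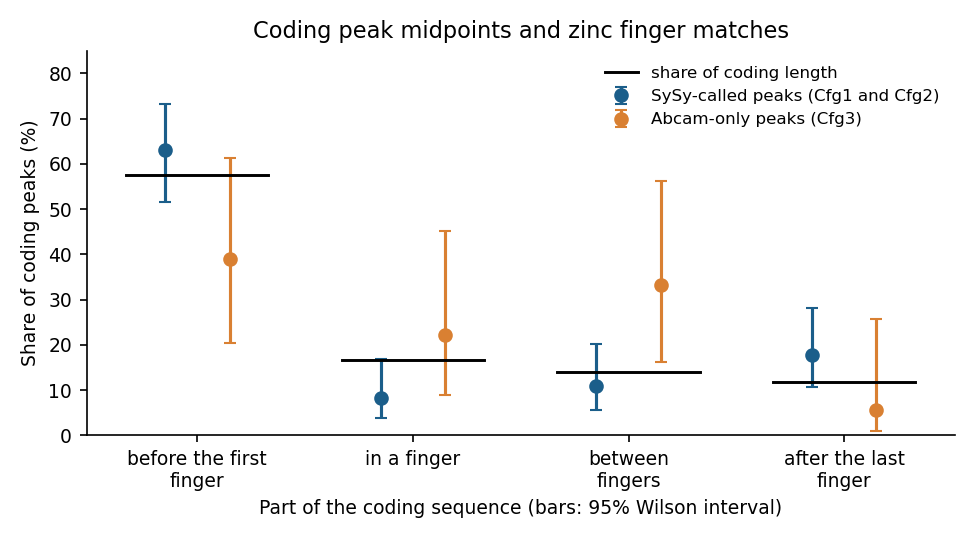
Share of coding peak midpoints (%, points with 95% Wilson intervals) before, in, between and after the zinc finger matches, for 73 SySy-called and 18 Abcam-only peaks, beside the share of coding length (black lines). The SySy-called shares are 63.0% before, 8.22% in, 11.0% between and 17.8% after the fingers.

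The zinc fingers were located by the spacing of cysteines and histidines in the translated coding sequences, and 40 of the 41 members had at least 1 match. The part before the first finger includes the BTB domain and the linker. It held 46 of the 73 SySy-called coding peaks (63.0%, 51.5 to 73.2), while making up 57.6% of the coding length of the genes with a coding peak. Finger repeats themselves held 6 peaks (8.22%, 3.82 to 16.8), at 16.6% of the length. Those 6 lay in Zbtb22, Zbtb18, Zbtb39, Zbtb43, Zbtb26 and Zbtb6. The stretch after the last finger held 13 (17.8%, 10.7 to 28.1), at 11.8% of the length. Between fingers there were 8 (11.0%, 5.66 to 20.2), at 14.0% of the length. Each length share lay inside the interval of the SySy-called peaks. Of the 18 Abcam-only coding peaks, 7 lay before, 4 in, 6 between and 1 after the fingers. Their share between fingers was 33.3% (16.3 to 56.3), but all 6 of these peaks lay in Zbtb1, Zbtb21 and Zbtb38. The length share of 14.0% is pooled over every member with a coding peak. It is therefore not a matched reference for these genes, and the difference was not tested.

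Introns held few Zbtb peaks. Midpoints of 4 of the 88 SySy-called peaks (4.55%, 1.78 to 11.1) and of 2 of the 24 Cfg3 peaks (8.33%, 2.32 to 25.8) were intronic. In the other coding genes 8.44% of SySy-called and 55.9% of Cfg3 peaks were intronic. Among genes with a SySy-called peak the median total intron length was 12348 nt in Zbtb genes and 24149 nt in the others. Over all genes, with or without a peak, it was 11766 nt in Zbtb genes and 13056 nt in the others. A link between intron length and these shares was not tested. The Cfg1 peak of Zbtb5, whose 3 GGACT copies are printed above, lay 4585 nt into the 16460-nt intron 1. It was the one intronic peak of the family called with both antibodies. In Zbtb7a a Cfg2 peak with 1 GGACT lay 2411 nt into the 2752-nt intron 2, nearer its 3′ end.

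Zbtb20, a repressor of alpha-fetoprotein in liver and a regulator of hippocampal neurons, was the sole gene whose SySy-called peaks were all intronic. Its Cfg2 peak lay 4743 nt into intron 5, of 46521 nt, and held no GGACT. A Cfg3 peak of the same gene lay 21403 nt into intron 1. The Zbtb48 peak lay 347 nt into the 368-nt intron 2 and was exonic in another annotated transcript of the gene. The other intronic Cfg3 peak was in intron 2 of Zbtb8a. None of these intronic midpoints was closer to a 5′ splice site than that of the Zbtb48 peak.

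**Figure D4:**
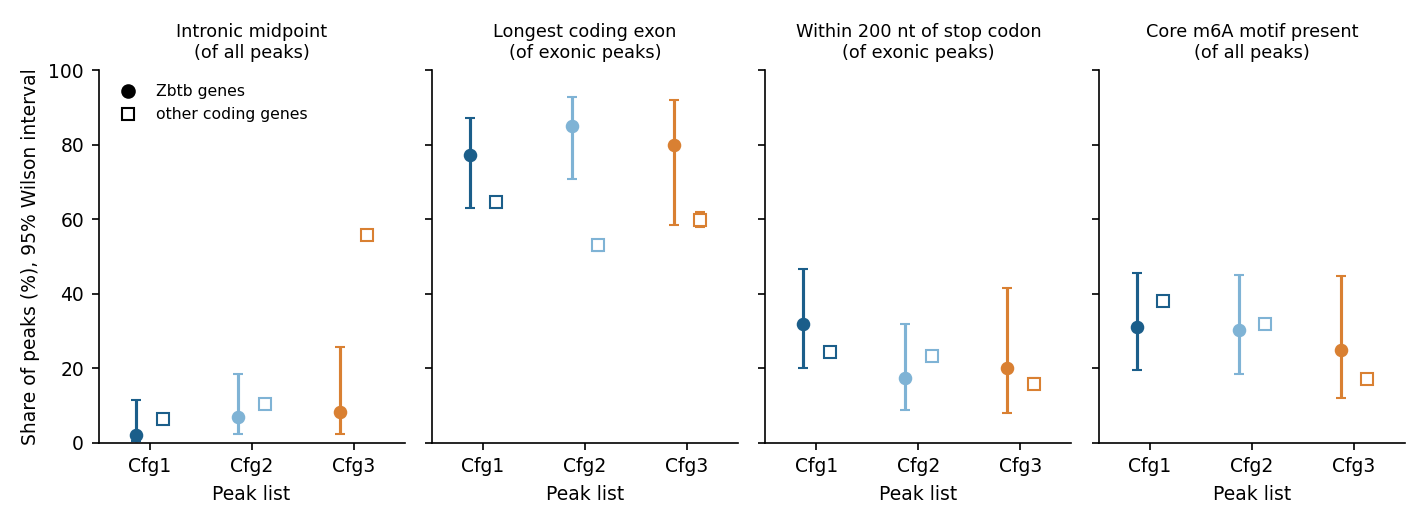
Share of peaks (%, with 95% Wilson intervals) that are intronic, in the longest coding exon, within 200 nt of the stop codon, or hold the core m6A motif, by list, for Zbtb genes (filled circles) and other protein-coding genes (open squares). In Zbtb genes the 3 lists have overlapping intervals in each panel. In other genes the intronic share is 55.9% for Cfg3 and 6.44% for Cfg1.

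GGACT was present in 27 of the 88 SySy-called peaks (30.7%, 22.0 to 41.0), in 17 of the 29 genes. Among other coding genes it was in 35.0% of such peaks. Windows of 199 nt, the median width of the SySy-called peaks, laid end to end along the coding sequences of all members held it in 17.1% of 375 cases. Per kb, GGACT occurred 2.08 times in SySy-called Zbtb peaks and 1.01 times in the coding sequences as a whole. With these related words added, 67 of the 88 peaks (76.1%) held at least 1 of the 4 words, and 78.0% did so in other genes. The window share was taken for GGACT alone, so the share for the 4 words has no such reference. GGACA was in 31.8% of the SySy-called Zbtb peaks, GGACC in 25% and AGACT in 33%. By occurrences GGACT was tied with the other words but GGACC, at 35 each. Peaks of up to 250 nt do not show which adenosine is methylated, and a match here is a description of the interval.

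SySy-called and Abcam-only peaks were compared in 4 shares. Of the 88 SySy-called peaks 45 had been called with the Abcam antibody too, so this sets peaks found with SySy against those found without it, not one antibody against the other. With Cfg2 alone, called with SySy but not Abcam, against Cfg3, every adjusted exact p was 1.00. Each share was tested by Fisher's exact test (two-sided), and the p-values were corrected over the 4 shares by Benjamini-Hochberg. Intronic shares of 4.55% and 8.33% differed by -3.79 percentage points (95% interval -21.5 to 5.12, adjusted exact p = 1.00). The longest coding exon held 81.0% of SySy-called and 80% of Abcam-only exonic peaks, a difference of 0.952 points (-14.4 to 23.7, adjusted exact p = 1.00). With 1 peak per gene in each set, the most 5′ one, the shares were 26 of 27 and 9 of 13. The difference was 27.1 points (3.83 to 54.1, exact p = 0.0313, adjusted 0.125). Zbtb genes with such a peak held a median of 3 SySy-called but 1 Cfg3 peak. Keeping the most 5′ peak can thus move the SySy-called set further upstream, and the effect of this choice was not tested. With Cfg1 alone against Cfg3 the difference was -2.73 points. Within 200 nt of the stop codon the shares were 25% and 20%, a difference of 5 points (-18.0 to 20.7, adjusted exact p = 1.00). GGACT was in 30.7% and 25% of peaks, a difference of 5.68 points (-16.0 to 22.3, adjusted exact p = 1.00). Under other settings the intronic difference reached -13.3 points (longest transcript, adjusted exact p = 0.148), that near the stop codon turned to -12.0 points (1 peak per gene, 0.493) and that in GGACT reached 27.2 points (1 peak per gene, 0.216). No difference was detectable among these 112 peaks, and the intervals leave room for differences of more than 20 percentage points. Peaks of 1 gene are not independent, which these intervals and p-values do not take into account.

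Neighbouring peaks of a gene often lay close together. The study had split called regions between summits, and the lists do not record which peaks came from one region. Of 79 pairs of adjacent peaks, 30 were separated by 30 nt or less. Of these close pairs, 26 were between SySy-called peaks. All 5 peaks of Zbtb26 lay in the span of Zbtb6 as well and were exonic in Zbtb26. The 5 peaks of Zbtb9 were also exonic in the overlapping gene Ggnbp1 on the same strand, so their gene of origin is uncertain.

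Related genes were set beside the family as counts. Of 8 BTB zinc finger genes with other names, 5 held a SySy-called peak, where 19.3% of all protein-coding genes did. They were Patz1 (4 Cfg1, 3 Cfg2), Zfp131 (5 Cfg1, 1 Cfg2), Hic2 (4 Cfg1, 1 Cfg2), Mynn (1 Cfg1, 1 Cfg2) and Gzf1 (1 Cfg1). Of 11 corepressors and partners of BTB proteins, 3 held one, a share near that 19.3%. These were Ncor1 (1 Cfg1), Sin3a (3 Cfg2) and Nacc1 (1 Cfg1, 1 Cfg2). The corepressor gene Ncor1 also had 5 Cfg3 peaks. All 8 stem cell markers listed, among them Pou5f1, Sox2 and Nanog, held a SySy-called peak, and none of 7 fibroblast and 4 lymphocyte markers held a peak of any list. Since 24.8% of all protein-coding genes held a peak, and peaks do not measure expression, the absence of peaks in those 11 genes is weak evidence on the cell type.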

How the data were processed

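The authors deposited 3 peak lists from ChrMeRIP-seq of E14 mESCs. Per the labels and methods, they had called peaks with MACS2 2.1.1 on the pooled duplicates of each antibody against input, split them between summits, trimmed them around each summit and set the strand by the stronger enrichment. The submitters' processing notes also name HOMER. The deposited score was 0 in all 17068 peaks, so intervals alone were used, and depth is unknown. In 1 entry the strand field held an extra character and was taken as plus.

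Midpoints were placed on GRCm38 (mm10 coordinates) with GENCODE vM21 (the study used a later release), in the transcript with the longest coding sequence. The spliced sequence matched the annotation's for 41 of 41 members. A peak in 2 nested members went to the one with an exon there. Zinc fingers were matched as 2 cysteines 2 to 4 residues apart, 12 residues, and 2 histidines (or a final cysteine) 3 to 5 residues apart. Placement was tested on simulated positions. Shares carry 95% Wilson intervals and differences Newcombe intervals, which cover counting of peaks alone. Tests were two-sided Fisher's exact tests (threshold 0.05, adjusted over 4). Python 3.11.15, numpy 2.4.6, scipy 1.17.1, pysam 0.24.0 and matplotlib 3.10.9 were used.

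Members, gene lists, tests and the naming rule were chosen with earlier results of these data known. Every member is named, and described in depth are the 8 with the most SySy-called peaks (ties by Cfg1, then symbol), the 3 with the most Cfg3 peaks and those with intronic SySy-called peaks. Of the related gene lists, those with a SySy-called peak are named, and 1 gene of the corepressor list is not reported here. Alternatives covered the transcript, overlap rule, motif, windows, 1 peak per gene (the most 5′), single lists and overlapping genes.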

Additional observations from a re-analysis of the deposited data

How the results depend on the processing

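No alternative passed the threshold in any of the 4 comparisons of SySy-called with Abcam-only peaks: of 31 values recomputed, 26 kept their direction, 4 reversed it and 1 was 0 (the longest coding exon, by any overlap of the interval). The difference near the stop codon became -12.0 points with 1 peak per gene, -2.50 with Cfg2 alone and -2.86 with a window of 400 nt. For the longest coding exon it became -2.73 with Cfg1 alone. The smallest adjusted p over the alternatives was 0.148 for the intronic share (-13.3 points, longest transcript), 0.216 for GGACT, 0.493 for the stop codon and 0.125 for the longest coding exon (27.1 points, 1 peak per gene), by Fisher's exact test. The 4 values without Zbtb8os, which held no peak, could not change. The setting with 1 peak per gene kept the most 5′ peak, which can move the set with more peaks per gene upstream. The causes of these shifts were not tested. With 24 Abcam-only peaks the intervals are wide. No paired analysis was possible because the lists are pooled and hold no value per replicate. For the same reason, no replicate could be left out, and without scores no stricter calling threshold could be applied.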
